A study of Mus musculus with 6 samples.

Results

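The enzymes and regulators of de novo fatty acid synthesis were followed across the cell classes of mouse white adipose tissue. Members were chosen by gene symbol, and they are 10 of the 56980 genes in the count matrices. They comprise the regulators Srebf1, Mlxipl and Thrsp, the enzymes Acly, Acss2 and Me1 that supply precursors, the synthase Fasn, and the elongase Elovl6 and desaturases Scd1 and Scd2 that finish the product.

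The study profiled single nuclei from subcutaneous adipose tissue (SAT, inguinal) and visceral adipose tissue (VAT, gonadal) of female C57BL/6J mice, to follow how fat depots change with age. The 6 libraries analysed here fell into 3 groups of 2, young SAT (2 months), old SAT (24 months) and old VAT (24 months). The labels give no transgene, diet or agent for any group. The older age is the one in the sample labels, since the series text states a different one, and VAT at the younger age was not analysed here.

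De novo lipogenesis turns carbohydrate into fatty acids. Citrate leaves the mitochondrion and is split to acetyl-CoA, acetyl-CoA carboxylase makes malonyl-CoA, and fatty acid synthase joins the units to palmitate with NADPH as the reductant, after which palmitate is elongated and desaturated. In fat the genes of this route are switched on together by insulin through SREBP-1c and by glucose through ChREBP, and adipocytes are one of the principal sites of the pathway beside liver.

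Across the 6 libraries, 27074 of 50859 barcodes were kept as nuclei with over 500 genes, over 1000 unique molecular identifiers (UMIs) and under 15% mitochondrial counts, 2490 to 5776 per library. The deposited totals ran from 8061862 to 16226690 UMIs per library, and the median kept nucleus held 1380 to 1878 UMIs. Libraries shared at most 0.769% of their barcodes. The labels call every library adipocytes, but the class with adipocyte markers made up 19.4% and 8.73% of the nuclei of the SAT libraries at 2 months, 27.3% and 44.9% at 24 months, and 64.7% and 3.39% of the VAT libraries, replicate 1 first in each pair. Immune nuclei made up 59.0% and 75.0%, 41.3% and 17.1%, and 7.40% and 23.6%. VAT replicate 2 stood apart: it gave 172 adipocyte nuclei against 504 to 2868 in the other libraries, and its adipocyte sum held 479 CPM (counts scaled to a fixed total per sum) of ovary or oviduct markers against 15.9 to 59.2 CPM elsewhere. The depot comparison is given with and without it. The median mitochondrial share of the kept nuclei was 1.72% and 0.918% in young SAT, 3.49% and 2.91% in old SAT, and 0.776% and 5.07% in VAT, so in SAT it was higher in both old libraries than in both young ones. All 9 adipocyte markers were detected in each of the 6 adipocyte sums, at 11574 to 14657 CPM together. The clusters were named from marker lists, so this describes the class and does not test its name. In the same sums 9 immune markers together stood at 829 and 1299 CPM in young SAT, 610 and 486 CPM in old SAT, and 472 and 408 CPM in VAT. Their part in the results was not tested.

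The promoters of 3 members are shown because their genes carry the main results: Srebf1, which changed with age, Acss2, which holds an SRE-type motif, and Scd1, whose levels differed between libraries in every class. Each line gives the 250 bases before the start of the canonical transcript in the GENCODE annotation of GRCm39, read 5′ to 3′ on the gene's strand, with matched SRE-type and CCAAT motifs in capitals. The promoters lie at chr11:60111469-60111718 (minus strand, Srebf1), chr2:155359618-155359867 (plus strand, Acss2) and chr19:44396341-44396590 (minus strand, Scd1).
Srebf1: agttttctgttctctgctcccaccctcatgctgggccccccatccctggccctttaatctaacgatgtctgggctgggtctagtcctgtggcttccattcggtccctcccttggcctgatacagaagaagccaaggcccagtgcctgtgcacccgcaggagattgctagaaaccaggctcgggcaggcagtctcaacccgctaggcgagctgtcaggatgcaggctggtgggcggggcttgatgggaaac
Acss2: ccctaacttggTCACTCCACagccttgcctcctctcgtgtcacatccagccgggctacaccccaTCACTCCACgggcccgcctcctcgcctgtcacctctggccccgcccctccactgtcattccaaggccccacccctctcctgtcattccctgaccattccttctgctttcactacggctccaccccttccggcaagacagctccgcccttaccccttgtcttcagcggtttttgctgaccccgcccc
Scd1: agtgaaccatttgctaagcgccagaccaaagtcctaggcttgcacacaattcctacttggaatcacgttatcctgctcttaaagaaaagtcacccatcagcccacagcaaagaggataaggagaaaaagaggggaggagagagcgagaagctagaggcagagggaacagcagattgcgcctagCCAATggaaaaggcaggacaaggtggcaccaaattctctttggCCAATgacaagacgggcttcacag

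The SRE-type motif searched was TCACNCCAC, a simplified form of the element that SREBP proteins bind, on both strands, in the windows of 9 members. It stood in 2 of them, Acss2 and Mlxipl, and in 1.12% of the 21770 gene starts of the same length. In Acss2 there were copies that began 239 and 186 bases before the start. A CCAAT box, the site of the factor NF-Y, stood in 1 of the 9 (Scd1) and in 36.5% of all windows, a GC box (GGGCGG) in 3 and in 36.3%, and the E-box CACGTG in 0 and in 6.26%. These are matches of letters, not measured binding. Scd1 and Scd2 are neighbours on chromosome 19 with similar sequences, and the counting could have split their reads, so their separate levels are less certain than those of the other members. Counts are per gene, so the SREBP-1a and SREBP-1c transcripts of Srebf1 cannot be told apart.

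The first question was which members differ in SAT adipocytes between 2 and 24 months. Srebf1, which encodes SREBP-1, fell to 196 ± 48.3 CPM at 24 months from 714 ± 85.3 CPM at 2 months (SD, n = 2 libraries each), and it was the 1 of 10 members called. Another 6 members had lower fitted levels at 24 months and 3 had higher ones, none past the test. Counts were summed over the adipocyte nuclei of each library and tested with edgeR's quasi-likelihood test, adjusted by the Benjamini-Hochberg method over all 13020 genes tested, with calls made at an adjusted p under 0.05. Of all genes tested, 13.1% were called, 6.12% higher and 6.99% lower, so 1 of 10 members, 0 higher and 1 lower, is near the share of all genes. DESeq2 also called 1 member. The members' median log2 fold change was -0.63 and that of all genes tested was -0.0050.

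**Figure D1:**
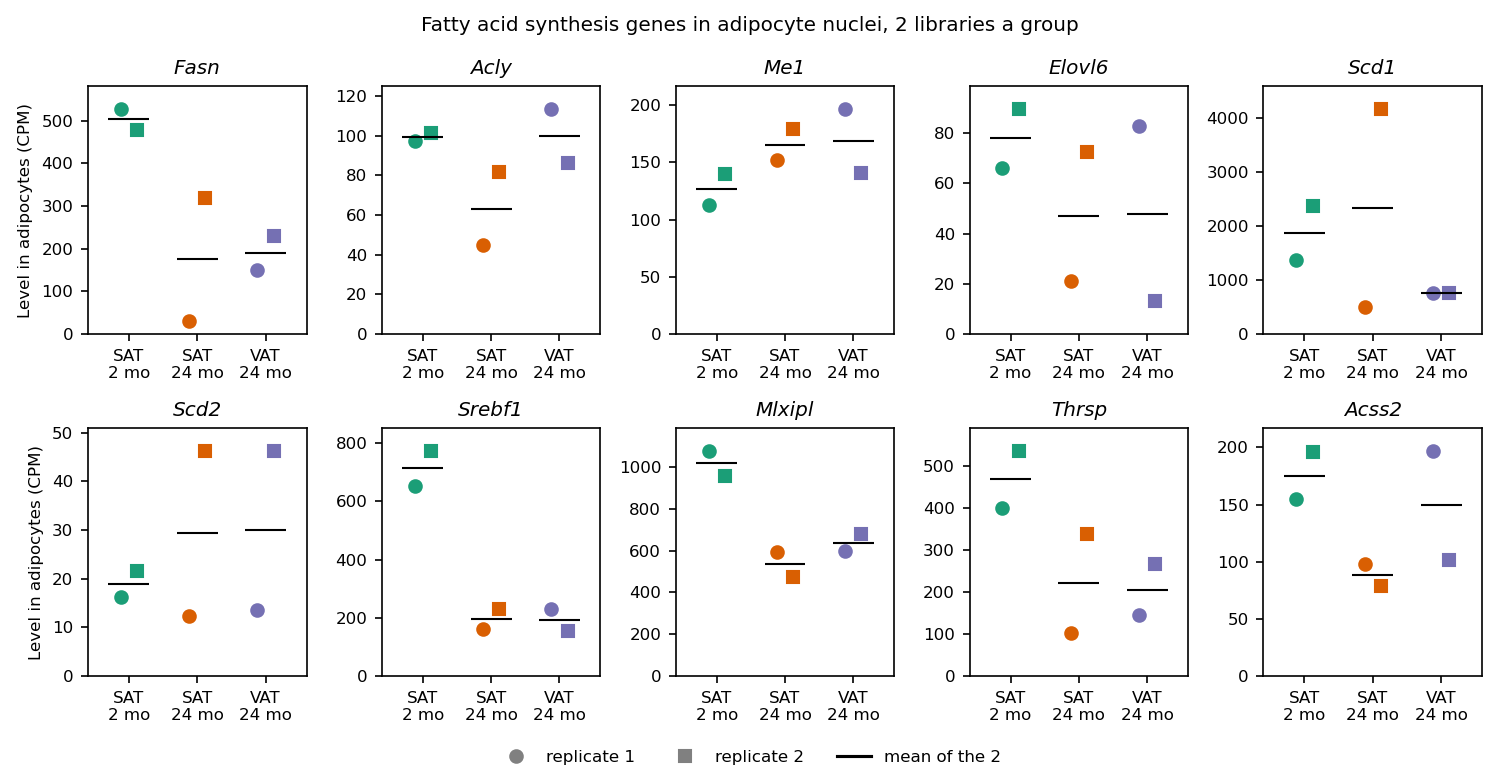
Level of each of the 10 genes in adipocytes, in CPM on an axis that starts at 0, with 1 point per library, coloured by group, and a line at each group's mean. The Srebf1 points of SAT at 2 months (654 and 775 CPM) lie above those of all 4 libraries at 24 months (154 to 230 CPM), while the Fasn and Scd1 points of SAT at 24 months lie far from each other.

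Among the regulators, Srebf1 stood at 654 and 775 CPM in the SAT libraries at 2 months, 162 and 230 CPM in old SAT, and 230 and 154 CPM in VAT at 24 months. Both young libraries were above all 4 old ones. The log2 fold change with age in SAT was -1.70 (standard error 0.30, 95% interval -2.36 to -1.05, edgeR adjusted p = 0.00407), a ratio of means of 3.64. Over 16 alternative settings it ran from -1.91 to -1.43, and the call was lost in 1 of them, without SAT at 2 months replicate 2 (log2 fold change -1.59, adjusted p = 0.0574). Without the VAT libraries it was -1.71 (adjusted p = 0.00341). In immune nuclei of the same libraries, whose markers were also higher in the young adipocyte sums, Srebf1 stood at 14.6% to 43.1% of its adipocyte level. The mitochondrial share, which moved with age in SAT, was lowest in VAT replicate 1, where Srebf1 stood at 230 CPM; its part in the age differences was not tested.

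Mlxipl encodes ChREBP, the glucose-responsive activator of lipogenic genes. It stood at 1079 and 955 CPM in young SAT, 596 and 475 CPM in old SAT, and 597 and 677 CPM in VAT. The young libraries were again above all 4 old ones, and the VAT levels lay close to those of SAT at 24 months. The log2 fold change was -0.76 (standard error 0.28, 95% interval -1.38 to -0.14), which was not called (edgeR adjusted p = 0.0966); with scaling by library size alone it was -0.95 and called (adjusted p = 0.0306). That scaling put the median of all genes tested at -0.17, so relative to it the change was close to that of the TMM fit.

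Thrsp, or Spot 14, is a nuclear protein that promotes lipogenesis and that thyroid hormone and carbohydrate induce. Its levels were 401 and 538 CPM in young SAT, 104 and 339 CPM in old SAT, and 146 and 267 CPM in VAT. All 4 old libraries were below both young ones, but the SAT libraries at 24 months differed 3.27-fold from each other. The log2 fold change of -0.93 (standard error 0.44) was not called (edgeR adjusted p = 0.179). Without SAT at 24 months replicate 2 it was -1.95 and called (adjusted p = 0.00467).

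Of the genes that supply acetyl-CoA, Acss2, which makes it from acetate, stood at 155 and 196 CPM in young SAT, 97.5 and 79.1 CPM in old SAT, and 197 and 101 CPM in VAT. The SAT groups did not overlap, and one VAT library lay with the young and the other with the old SAT libraries. The log2 fold change in SAT was -0.83 (standard error 0.33, edgeR adjusted p = 0.117), and it was called in 3 of 16 alternatives, among them a fit of the 4 SAT libraries alone (adjusted p = 0.0395). Acly, ATP citrate lyase, which splits exported citrate, stood at 97.1 and 101 CPM in young SAT, 44.6 and 81.8 CPM in old SAT, and 114 and 86.0 CPM in VAT. Its groups in SAT did not overlap either, and its log2 fold change was -0.47 (standard error 0.30, edgeR adjusted p = 0.322). Me1, the cytosolic malic enzyme that makes NADPH, ran the other way. It stood at 113 and 140 CPM at 2 months, 152 and 179 CPM in old SAT, and 197 and 141 CPM in VAT, with a log2 fold change of 0.56 (standard error 0.27, edgeR adjusted p = 0.191).

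Fasn encodes the synthase itself. Its levels were 529 and 479 CPM in young SAT, 30.9 and 320 CPM in old SAT, and 150 and 229 CPM in VAT. All 4 old libraries were below both young ones, but the SAT libraries at 24 months stood 10.3-fold apart, the widest gap of any member within a group of adipocyte sums. The log2 fold change was -1.37 (standard error 0.65, 95% interval -2.78 to 0.04) and was not called (edgeR adjusted p = 0.181). That value depended on the library: without SAT at 24 months replicate 2 it was -3.80 (adjusted p = 1.31e-05), and without replicate 1 it was -0.45.

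The genes that finish the product differed between the SAT libraries at 24 months more than between ages. Scd1, the main stearoyl-CoA desaturase of fat, which makes oleate and palmitoleate, stood at 1368 and 2364 CPM in young SAT, 493 and 4169 CPM in old SAT, and 767 and 750 CPM in VAT. The lowest and the highest library were thus of the same group, 8.47-fold apart, and the log2 fold change of 0.45 (standard error 0.65, edgeR adjusted p = 0.698) reached -1.69 (adjusted p = 0.0172) without replicate 2 and 1.37 without replicate 1, both called, in opposite directions. Scd2, a second desaturase isoform, stood at 16.3 and 21.6 CPM in young SAT, 12.4 and 46.3 CPM in old SAT, and 13.6 and 46.3 CPM in VAT. Its levels fell into the same high and low libraries at 24 months in SAT as those of Scd1. The log2 fold change was 0.88 (standard error 0.60, edgeR adjusted p = 0.359), and without SAT at 24 months replicate 1 it was 1.52 and called (adjusted p = 0.0342). Elovl6, which extends palmitate to stearate, stood at 66.2 and 89.9 CPM in young SAT, 21.3 and 72.4 CPM in old SAT, and 82.8 and 13.2 CPM in VAT. The last value rests on 6 UMIs. Its log2 fold change was -0.51 (standard error 0.57, edgeR adjusted p = 0.596).

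The gap between the SAT libraries at 24 months differed in size from member to member. Replicate 2 was higher for Fasn (10.3-fold), Scd1 (8.47-fold), Scd2 (3.74-fold), Elovl6 (3.40-fold), Thrsp (3.27-fold) and Acly (1.83-fold). For Srebf1 it was 1.42-fold higher and for Me1 1.18-fold, while for Mlxipl replicate 1 was 1.25-fold higher and for Acss2 1.23-fold. The widest gap between the SAT libraries at 2 months was 1.73-fold, for Scd1. The labels give 1 date for all libraries, so no batch separates these libraries by label.

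**Figure D2:**
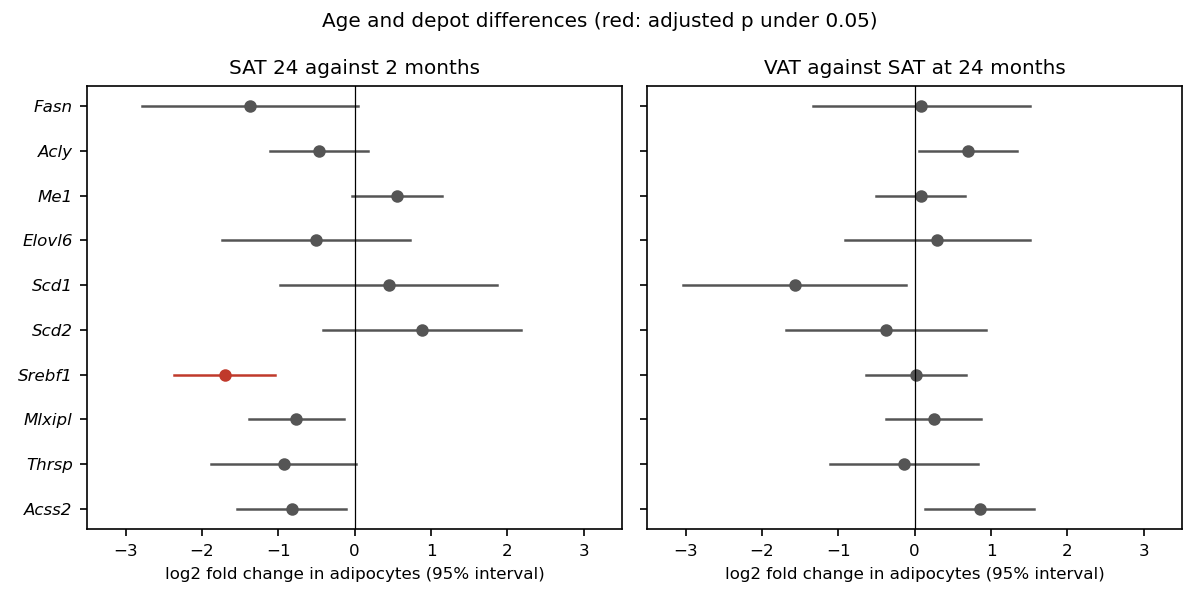
Log2 fold change of each of the 10 genes in adipocytes from the edgeR fit, with its 95% interval, for SAT at 24 against 2 months and for VAT against SAT at 24 months. Only the Srebf1 age interval (-2.36 to -1.05) belongs to a called gene.

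The share of adipocyte nuclei in which a member was seen moved with its level. Nuclei were thinned to 1000 UMIs each, so that deeper nuclei did not count as more often positive. Srebf1 was then seen in 40.8% and 45.2% of SAT adipocytes at 2 months and in 13.1% and 19.1% at 24 months, with 17.8% and 15.3% in VAT. Mean shares in SAT were 43.0% ± 3.16 (SD, n = 2) and 16.1% ± 4.28, and without thinning they were 58.0% and 27.6%. Mlxipl was seen in 58.3% and 52.0% at 2 months and in 40.8% and 33.1% at 24 months, and Fasn in 31.0% and 31.4% against 3.05% and 20.9%. For Srebf1, Mlxipl, Fasn, Thrsp and Acss2 the young SAT libraries lay above the old ones, and for Me1 below them. The exact permutation test of 2 against 2 libraries gave p = 0.333 for each, the smallest it can give. How many of all genes separate in this way was not counted, so these separations do not set the members apart. At least 3 of the 10 members were seen in 70.5% and 74.8% of unthinned nuclei at 2 months, in 26.9% and 64.3% of SAT nuclei at 24 months, and in 49.1% and 54.7% in VAT. Thus the adipocytes of SAT at 24 months replicate 1 stood out by carrying few members per nucleus: 13.5% of them carried none, against 0.946% to 6.98% in the other libraries.

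The other genes of the pathway were taken from 5 lists. Together 11 of their 84 genes tested were called with age, 13.1%, the same share as over all genes (13.1%), so the counts by list are a description and set no list apart. Of 18 genes tested in the list of acetyl-CoA carboxylation, elongation and desaturation, 0 rose and 2 fell with age in SAT adipocytes, and both encode the carboxylases that make malonyl-CoA. Acacb, the isoform tied to the mitochondrial surface, stood at 1757 and 2153 CPM at 2 months and 146 and 102 CPM at 24 months, with a log2 fold change of -3.82 (edgeR adjusted p = 0.000549). Acaca, the isoform that feeds the synthase, stood at 1023 and 1306 CPM and at 298 and 437 CPM (log2 fold change -1.51, edgeR adjusted p = 0.0115). In neither did the SAT groups overlap. The median of the list was -0.33.

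Of 18 genes tested for glucose entry and citrate supply, 0 rose and 2 fell, beside 6.12% and 6.99% of all genes. Slc25a1, the mitochondrial citrate carrier, went from 119 and 143 CPM to 31.6 and 52.1 CPM (log2 fold change -1.46, edgeR adjusted p = 0.00521), and Pdha1, a subunit of pyruvate dehydrogenase, from 222 and 196 CPM to 56.3 and 103 CPM (log2 fold change -1.22, edgeR adjusted p = 0.0161). For both genes the young SAT libraries lay above the old ones, and the median of the list was -0.15. Of 8 genes of NADPH supply, 1 rose and 1 fell, both of the pentose phosphate pathway. G6pdx, its first enzyme, stood at 38.5 and 27.3 CPM at 2 months and 96.9 and 134 CPM at 24 months (log2 fold change 1.93, edgeR adjusted p = 0.00139), and Pgls, the next one, fell by 0.99 on the log2 scale (edgeR adjusted p = 0.0212). Of 22 regulators of lipogenic transcription, 0 rose and 1 fell: Rxra, the partner of LXR and PPAR receptors (log2 fold change -0.96, edgeR adjusted p = 0.0349).

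Of 18 genes tested for cholesterol synthesis, 2 rose and 2 fell, again beside 6.12% and 6.99% of all genes. Hmgcs1 (log2 fold change 1.53, edgeR adjusted p = 0.0138) and Sc5d (1.54, adjusted p = 0.00448) rose, while Acat2 (-1.63, adjusted p = 0.00592) and Fdft1 (-1.11, adjusted p = 0.0474) fell. Hmgcs1 makes HMG-CoA and Fdft1 makes squalene, so genes of the same branch, which SREBP-2 is best known to drive, moved in both directions. The calls of G6pdx and Acacb held in all 16 alternatives, and those of Pgls, Rxra and Fdft1 in 9, 9 and 6 of them. Leaving out SAT at 2 months replicate 2 ended the calls of Slc25a1 (adjusted p = 0.0702), Pdha1 (0.0876), Acaca (0.136), Hmgcs1 (0.0886) and Acat2 (0.119), and leaving out replicate 1 those of Pdha1 (0.136), Acaca (0.0545), Hmgcs1 (0.147) and Sc5d (0.0842). Without SAT at 24 months replicate 1, Pdha1 (0.127) and Acaca (0.0621) were also not called, nor was Hmgcs1 without replicate 2 (0.144).

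The second comparison set VAT against SAT adipocytes at 24 months. With edgeR 0 of 10 members were called, 3 had an unadjusted p under 0.05, and DESeq2 called 0. Of all genes tested, 0.108% were called. The largest fitted differences were a log2 fold change of -1.57 for Scd1 (standard error 0.67, edgeR adjusted p = 0.688), 0.85 for Acss2 (standard error 0.33, adjusted p = 0.646) and 0.70 for Acly (standard error 0.30, adjusted p = 0.688). Group means of Scd1 were 758 ± 11.8 CPM in VAT and 2331 ± 2600 CPM in SAT (SD, n = 2), so the spread in SAT exceeded the difference. Srebf1 was at 192 ± 53.6 CPM in VAT and 196 ± 48.3 CPM in SAT, and its interval of -0.63 to 0.67 on the log2 scale bounds the difference. That of Fasn, -1.34 to 1.51, was too wide to bound it. Leaving out SAT at 24 months replicate 1 gave a called Scd1 difference of -2.44 (adjusted p = 0.00204), and leaving out replicate 2 a called Fasn difference of 2.52 (adjusted p = 0.0105). Leaving out VAT replicate 2, the library with few adipocytes, called 0 members, with Acss2 at 1.23 (adjusted p = 0.136). In the 5 pathway lists 0 genes were called between depots.

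The levels of the members were compared over the 6 named cell classes. Mlxipl had a mean of 730 CPM in adipocytes and 88.3 CPM in endothelial nuclei, the next class, and its ranges over libraries did not overlap. Acss2 was likewise apart, at 138 CPM in adipocytes and 59.8 CPM in immune nuclei. For the other 8 members the top class overlapped the next one. Of the named classes, adipocytes had the highest mean of Fasn, Srebf1, Thrsp and Me1, and this held with each library left out in turn. Acly, Elovl6 and Scd1 had a higher mean in endothelial nuclei, but in young SAT the mean was higher in adipocytes for Scd1 (1866 against 859 CPM), Acly (99.2 against 52.1 CPM) and Elovl6 (78.0 against 65.1 CPM). The endothelial Scd1 mean of 2706 CPM rests on SAT at 24 months replicate 2: without it, adipocytes were the higher (1148 against 868 CPM), as they were for Elovl6 without VAT replicate 1 (52.6 against 47.7 CPM). Scd2 had a mean of 26.1 CPM in adipocytes, against 55.8 CPM in epithelial nuclei, 55.6 CPM in fibro-adipogenic progenitors (FAPs), 45.7 CPM in endothelial nuclei, 44.8 CPM in immune nuclei and 32.8 CPM in mesothelial nuclei. These means are over libraries of different groups, and all other neighbouring classes overlapped, apart from Acly between epithelial (62.5 CPM) and mesothelial nuclei (37.9 CPM). A further 2900 nuclei, 1445 of them of VAT replicate 2, were of other or unnamed clusters and stand outside this order. Their means rested largely on VAT replicate 1: in that library they held 731 CPM of Acly, 540 CPM of Me1, 531 CPM of Acss2 and 484 CPM of Elovl6, and without it the means fell from 176 to 64.6 CPM, from 198 to 130 CPM, from 142 to 63.9 CPM and from 131 to 60.5 CPM. Mlxipl stood there at 44.7 to 765 CPM, the highest value, inside the adipocyte range, being that of VAT replicate 1.

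**Figure D3:**
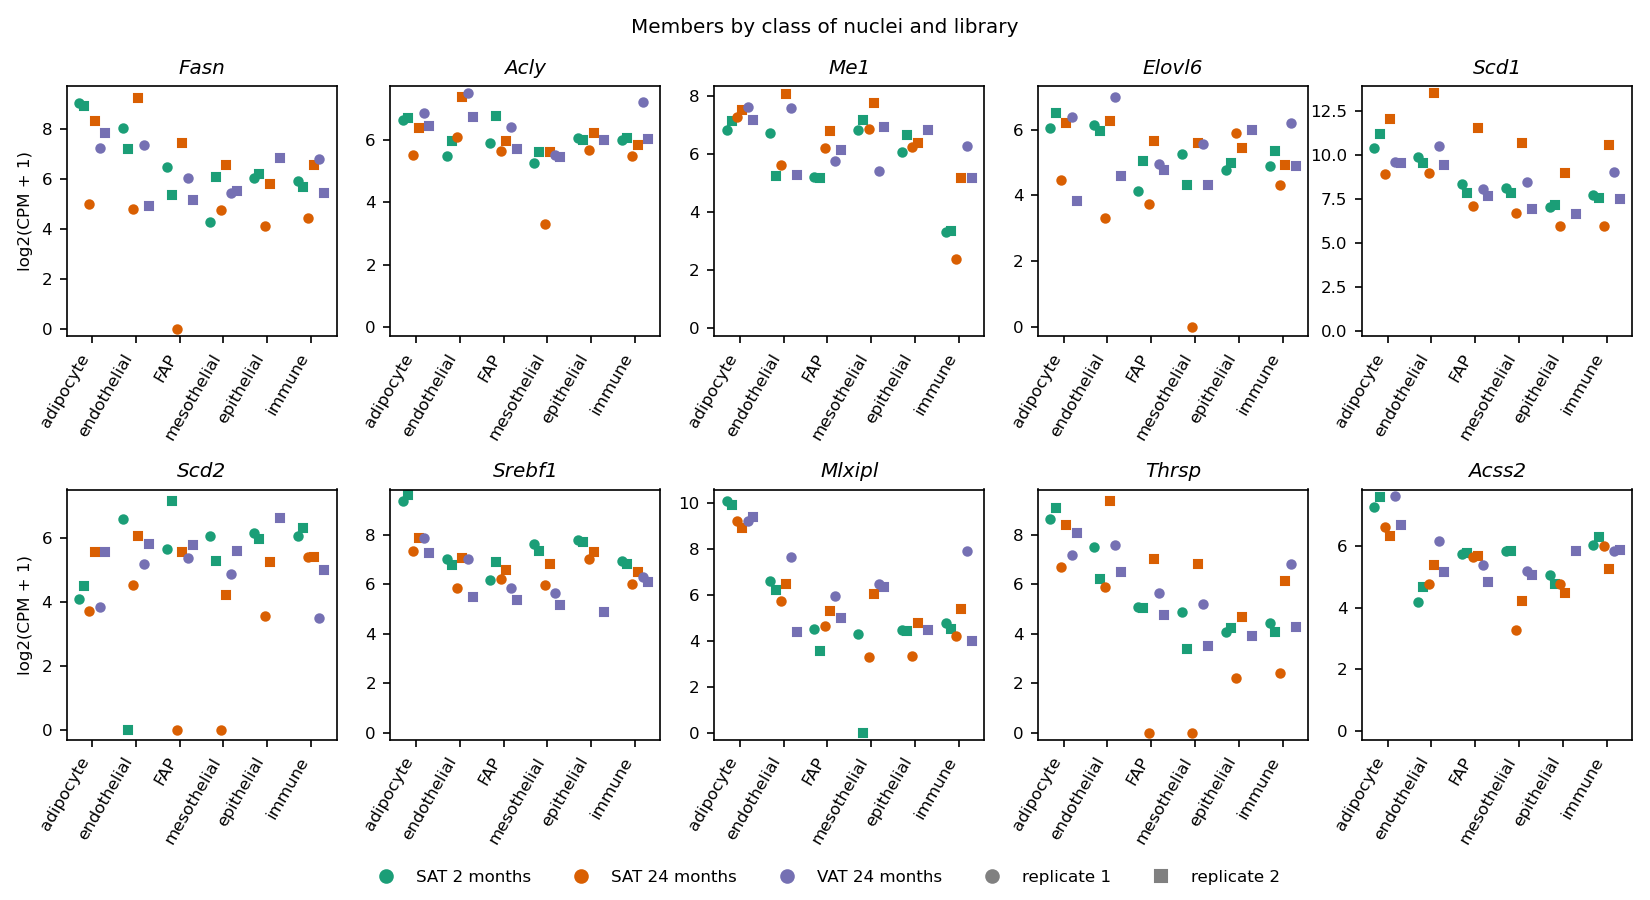
Level of each of the 10 genes by cell class, as log2(CPM + 1), with 1 point per library. The Mlxipl points in adipocytes (475 to 1079 CPM) stand above those of the other 5 classes drawn (at most 237 CPM), and the Scd1 point of SAT at 24 months replicate 2 is the highest in every class.

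In the other classes the levels were read beside the adipocyte markers found there, since free RNA of adipocytes can give UMIs in other nuclei; free RNA was not measured here. Summed over the 9 markers, immune nuclei held 3.32%, 2.69%, 2.31%, 11.6%, 26.7% and 1.69% of the adipocyte level, in the order young SAT, old SAT and VAT, replicate 1 first. Mlxipl in immune nuclei stood at 2.49%, 2.32%, 2.93%, 8.67%, 39.8% and 2.20% of its own adipocyte level. Both were highest in VAT replicate 1 and next in SAT at 24 months replicate 2. Scd2 and Acly had another order. Scd2 in immune nuclei was at 405%, 360% and 334% of its adipocyte level in the first 3 libraries and 90.5%, 76.1% and 67.7% in the others. Acly was at 64.3% to 130%, and its highest value was also that of VAT replicate 1. In CPM, immune nuclei held 65.8 and 77.9 of Scd2 in SAT at 2 months, 41.3 and 41.8 in SAT at 24 months, and 10.3 and 31.4 in VAT. T cell nuclei held 84.4 and 104 CPM of Scd2 in SAT at 2 months and 30.9 and 32.1 CPM at 24 months. Acss2 was seen in T cells at 78.9 to 99.7 CPM in the 5 libraries with enough of them, a narrower range than in adipocytes (79.1 to 197 CPM).

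**Figure D4:**
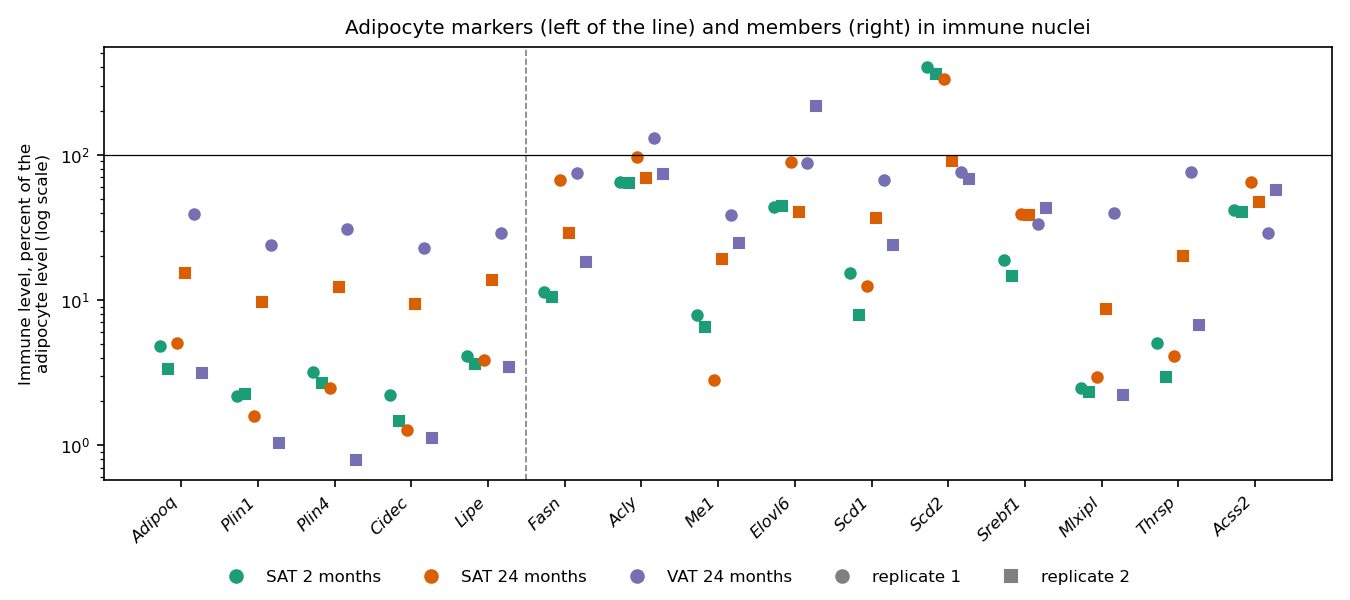
Level of each gene in immune nuclei as a percentage of its level in adipocytes of the same library, on a log axis, beside 5 adipocyte markers (Adipoq, Plin1, Plin4, Cidec and Lipe), with 1 point per library. Mlxipl lies at 2.20% to 39.8%, highest in VAT replicate 1 as the markers are. Acly lies at 64.3% to 130%, also highest there, while Scd2 lies at 67.7% to 405%.

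Scd1 differed between libraries within each of the 6 classes. In SAT at 24 months replicate 2 it reached 11895 CPM in endothelial nuclei, 2997 CPM in FAPs, 1611 CPM in mesothelial, 1540 CPM in immune and 495 CPM in epithelial nuclei, in each class the highest of the libraries. Its replicate held 495, 134, 105, 61.4 and 61.1 CPM, 8.09-fold to 25.1-fold less. The endothelial nuclei of replicate 2 also carried Adipoq at 116% of the adipocyte level and the 9 adipocyte markers together at 53.6%, while in the other libraries these were 17.1% to 101% and 5.31% to 37.0%, and 612 of the 1045 nuclei of the Gpihbp1-led capillary cluster came from it. The part of adipocyte RNA in these levels was not tested.

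By class, the age test called few members. In FAPs edgeR called 0 of 10 with age and 0 between depots, beside 0% of all genes in both, with 2 and 1 members at an unadjusted p under 0.05. Endothelial nuclei gave 0 of 10 in both, beside 0.0255% and 0% of genes, with 1 member each at an unadjusted p under 0.05, Scd1 in both. In mesothelial nuclei 4 members could be tested, and 0 were called with age and 0 between depots, beside 0% and 7.8% of genes, with 0 at an unadjusted p under 0.05. Immune nuclei gave 0 of 10 in both, beside 0% and 0% of genes, with 0 members at an unadjusted p under 0.05. Summed over all nuclei, 0 of 10 were called in both, beside 0% and 0.0138% of genes, with Me1 at an unadjusted p under 0.05 with age and no other. DESeq2 called 0 members in each of these comparisons, where it called 2 to 507 genes in all. In bulk sums over all nuclei, fewer cells of a type and less RNA per cell cannot be told apart: the adipocyte class held 12.4% to 87.4% of the Srebf1 UMIs of a library and 38.1% to 89.5% of the Mlxipl UMIs.

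Epithelial nuclei, which carry mammary gland markers, were tested in SAT only, since VAT replicate 1 held 13 of them. Scd2 fell with age there: 71.0 and 61.7 CPM at 2 months and 10.9 and 37.1 CPM at 24 months (log2 fold change -1.40, standard error 0.37, edgeR adjusted p = 0.0318). The groups did not overlap. It was the 1 of 10 members called, beside 7.73% of all genes, with 4 members at an unadjusted p under 0.05, and DESeq2 called 0 (adjusted p of Scd2 0.305). Its alternatives ran from -2.59 to -0.85, and 4 of 8 were called; the calls lost included those without SAT at 2 months replicate 1 (adjusted p = 0.159) and without SAT at 24 months replicate 1 (0.0917). The mix of epithelial nuclei moved with age as well: the Pgr-led cluster made up 69.0% and 50% of them at 2 months and 35.7% and 40.1% at 24 months. Within that cluster Scd2 stood at 79.9 and 77.9 CPM and at 21.3 and 56.8 CPM (log2 fold change -0.96, edgeR adjusted p = 0.138), and 0 of 10 members were called, beside 4.27% of genes, with 2 at an unadjusted p under 0.05.

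Whether the age effect differed between classes was tested as an interaction of class and group, with library as a block, over the 4 SAT libraries for epithelial nuclei and over all 6 libraries for immune nuclei. Between adipocytes and epithelial nuclei 2 of 10 members were called, beside 9.22% of genes. Scd2 differed by 2.33 on the log2 scale (standard error 0.44, 95% interval 1.44 to 3.23, edgeR adjusted p = 0.000485), being fitted higher with age in adipocytes and lower in epithelial nuclei, and Srebf1 by -1.06 (standard error 0.30, edgeR adjusted p = 0.0225), with the larger fall in adipocytes. The Scd2 difference was called without each SAT library in turn, at 2.00 to 2.6, and that of Srebf1 was not called without SAT at 2 months replicate 1 (adjusted p = 0.104) or replicate 2 (0.336), or without a filter on low counts (0.0544). With the Pgr-led cluster in place of all epithelial nuclei, 3 of 10 were called, beside 7.56% of genes: Scd2 (1.87, adjusted p = 0.00631), Srebf1 (-1.23, adjusted p = 0.0130) and Me1 (1.13, adjusted p = 0.0333). These calls rested on single libraries: Scd2 was not called without SAT at 2 months replicate 1 (adjusted p = 0.128) or SAT at 24 months replicate 2 (0.135), nor Srebf1 without SAT at 2 months replicate 2 (0.387) or without a filter on low counts (0.0506). Me1 was not called with library-size scaling (0.0987) or without SAT at 2 months replicate 1 (0.0620), SAT at 2 months replicate 2 (0.370) or SAT at 24 months replicate 1 (0.0593). Between adipocytes and immune nuclei edgeR called 0 of 10, beside 0.938% of genes, with 3 members at an unadjusted p under 0.05. Those were Fasn (-1.82, adjusted p = 0.189), Srebf1 (-1.11, adjusted p = 0.191) and Scd2 (1.42, adjusted p = 0.236).

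Adipocytes were divided into 9 sub-clusters, drawn without the members or the pathway genes, and 8 of them held at least 20 nuclei in every SAT library. Srebf1 and Mlxipl were lower in both libraries at 24 months than in both at 2 months in 8 of 8 sub-clusters. Acss2 and Thrsp did so in 6, Fasn in 5, and Elovl6 and Acly in 3, while Scd1 overlapped in all 8. Me1 was higher in both old libraries in 2 and lower in 0, and Scd2 higher in 2 and lower in 1. Of these sub-clusters, the one led by Dcn and Pi16 held 3 FAP markers over 2-fold above the other adipocytes and the one led by Ccn1 and Acta2 held 2 smooth muscle or pericyte markers; the part of other cells in these levels was not tested. Without the Dcn-led one the age difference of Srebf1 in adipocytes was -1.71 (edgeR adjusted p = 0.00236). The sub-clusters share their libraries and are not replicates, so the counts describe how evenly the difference was spread. They were made for the members only, with no share over all genes, and do not set the members apart.

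**Figure D5:**
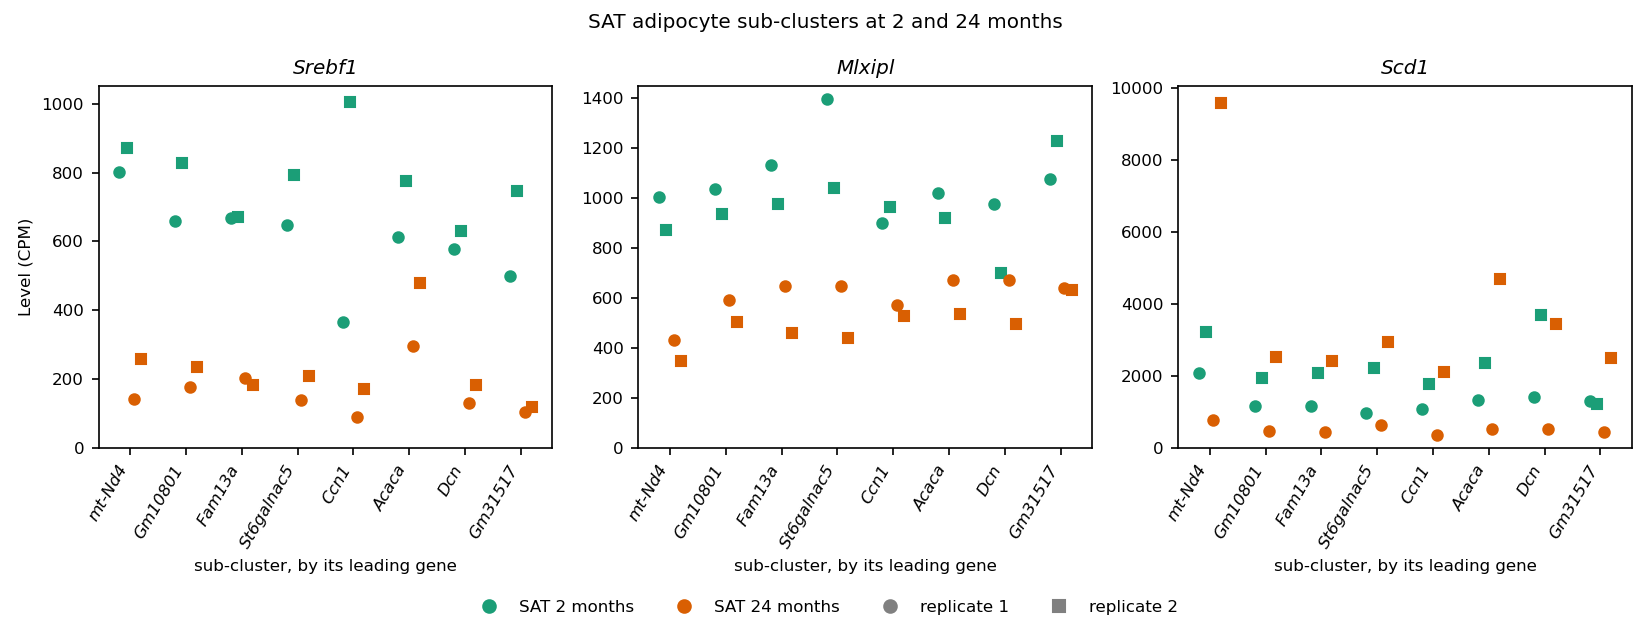
Level of Srebf1, Mlxipl and Scd1 in 8 adipocyte sub-clusters of SAT, each named by its leading gene, in CPM on an axis that starts at 0, with 1 point per library. The points of both libraries at 24 months lie below those at 2 months in 8 of 8 sub-clusters for Srebf1 and Mlxipl, and the ages overlap in 8 of 8 for Scd1.

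One sub-cluster was led by lipogenic genes, and its distance from the other adipocytes differed between libraries. Its leading genes included Acaca, Acss2, Elovl6, Cidea and Fasn, and its 501 nuclei made up 3.49% to 11.5% of the adipocytes of each library. In VAT replicate 1, where it held 193 nuclei, Acss2 stood at 1306 CPM against 125 CPM in the other adipocytes, Elovl6 at 715 against 41.7 CPM, Fasn at 1088 against 88.7 CPM, Acly at 671 against 77.5 CPM and Me1 at 1125 against 137 CPM. These 5 enzymes thus differed 8.23-fold to 17.2-fold there. The other members differed less: Scd2 was 6.98-fold, the regulator Thrsp 4.38-fold and Scd1 3.11-fold higher. Srebf1 stood at 569 against 208 CPM and Mlxipl at 950 against 574 CPM. In the 4 SAT libraries the folds were smaller: those of Elovl6 were 1.70, 2.07, 5.22 and 2.41, the third resting on 6 UMIs, and those of Acss2 1.5, 1.60, 4.2 and 1.79. In the young SAT libraries Srebf1, Mlxipl and Scd1 were near the level of the other adipocytes, with folds of 0.932 and 1.00 for Srebf1, 0.938 and 0.958 for Mlxipl and 0.959 and 0.994 for Scd1, while Acly was at 1.41 and 0.989 and Thrsp at 0.993 and 1.49. In the old SAT libraries the folds were 1.90 and 2.22 for Srebf1, 1.13 and 1.13 for Mlxipl and 1.08 and 1.13 for Scd1. Cells of 1 library share their source, so no test was made. Without this sub-cluster, an alternative added after the data were seen, the age difference of Srebf1 was -1.79 (edgeR adjusted p = 0.00214). In that fit 2 members were called, Acss2 being the other (-0.87, adjusted p = 0.0445), beside 1630 genes in all, against 1707 in the fit reported. The depot differences of Elovl6, Me1 and Fasn turned from 0.30, 0.08 and 0.09 to -0.38, -0.16 and -0.13 without the sub-cluster, with 0 members called.

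Some genes known from thermogenic fat, looked up after their values were seen, were also high in this sub-cluster in VAT replicate 1. Another, Ppargc1a, stood there at 71.3 CPM, inside its range of 63.8 to 110 CPM in the SAT nuclei of the sub-cluster. In VAT replicate 1 Cidea, a lipid droplet protein abundant in brown fat, stood at 291 CPM in the sub-cluster against 8.34 CPM in the other adipocytes. Ppara stood at 1048 against 153 CPM, and Ucp1, the uncoupling protein of brown fat, at 77.5 against 8.21 CPM. The SAT nuclei of the sub-cluster, 34 to 130 per library, held 0 UMIs of Ucp1, which by counting error alone allows up to 2.31% to 8.82% of the nuclei of a library to hold one and does not limit how many express the gene. Cidea stood in them at 173 and 283 CPM at 2 months, against 5.44 and 19.5 CPM in the other adipocytes. At 24 months it stood in them at 31.2 and 25.9 CPM, from 2 and 8 UMIs. Ppara stood in them at 703 and 984 CPM at 2 months, against 288 and 474 CPM in the other adipocytes. A further 56 nuclei of VAT replicate 1 fell outside the adipocyte class, in the cluster led by the steroidogenic genes Cyp11a1 and Lhcgr. They went against that cluster's name, since they held 0 UMIs of Cyp11a1, Lhcgr, Hsd3b1 and Star. They held Plin1 at 872 CPM, Cidea at 841 CPM, Ppara at 3735 CPM and Ucp1 at 369 CPM, with Ucp1 seen in 39.3% of them. Another 33 nuclei of that cluster came from SAT at 24 months replicate 2: they too held 0 UMIs of these steroidogenic genes and held Plin1 at 1180 CPM, but 0 UMIs of Ucp1 and Cidea. The member levels of the 56 nuclei were high: Acly at 1898 CPM, Fasn at 1590 CPM, Mlxipl at 1457 CPM, Acss2 at 1375 CPM, Me1 at 1365 CPM and Elovl6 at 1180 CPM. The 306 nuclei of VAT replicate 2 in that cluster, with Cyp11a1 at 14630 CPM, held Me1 at 1419 CPM and Fasn at 107 CPM. Me1 was thus high in both sets of VAT nuclei, and stood at 172 CPM in the 33 of SAT.

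Of 11995 genes compared over 35 sums of library and class, those whose level followed the members' mean most closely were Art3 (Pearson r 0.875), Ormdl3 (0.865), Retn, the hormone resistin (0.850), Cfd, the complement protease adipsin (0.849), and Ces1d, a carboxylesterase of fat (0.847). They were followed by Agpat2 (0.846), an acyltransferase of triglyceride assembly, Crat (0.838), Cd1d1 (0.838), Slc2a4 (0.835), the insulin-responsive glucose transporter, and Inca1 (0.834). The members themselves ranged from 0.902 for Thrsp to 0.217 for Scd2 and 0.341 for Me1 against that mean, of which each is a part. The sums share libraries, and most of the spread is between adipocytes and other classes, so these values describe a pattern and carry no p.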

How the data were processed

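Single-nucleus RNA-seq was analysed in 6 libraries of 3 groups (n = 2 each). The deposited values are raw UMI counts for each gene in each nucleus, which the authors made with Celescope against GRCm39 from GEXSCOPE libraries; its version and annotation release are not given in the sources used here. A 10x label on the samples differs from the GEXSCOPE kit in the protocol. The filter of the study was applied (more than 500 genes and 1000 UMIs, less than 15% mitochondrial counts), and the numbers it leaves here differ from those the study lists. The 1000 most variable genes, without the members and the pathway genes, gave 30 principal components, corrected by library with Harmony, and a graph of 20 neighbours clustered by Leiden at resolution 2 (scanpy 1.11.5, leidenalg 0.10.2, Python 3.11.15). Clusters were named from marker lists, and the naming rule was adjusted after the clusters were seen. Doublets were kept, and the 6% of nuclei per library with the highest Scrublet scores were removed as an alternative.

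Counts were summed per library and class where at least 20 nuclei were present, and sums were expressed as CPM. Differences were tested with edgeR 4.0.16 in R 4.3.3 (TMM, filterByExpr, quasi-likelihood), all libraries in one fit of 3 groups, adjusted by Benjamini-Hochberg over all genes tested, and DESeq2 1.42.0 was the alternative. The interaction with epithelial nuclei had been planned over all 6 libraries and was fitted without VAT. Shares of nuclei with a UMI were compared after thinning to 1000 UMIs, by an exact two-sided permutation test over libraries. In counts simulated for SAT adipocytes at 24 against 2 months over 13020 genes, 10.6% of genes changed 2-fold and 67.7% of those changed 4-fold were recovered, with 9 false calls. UMI counts are subject to counting error. The study describes both depots as taken from 2 mice per age, so old SAT and old VAT libraries may share mice; neither it nor the labels tie a library to a mouse. The p-values measure the spread between libraries, part of which may be technical. The members and the lists were chosen with earlier results of these data known. Named genes were the 10 members, up to 3 called genes per direction of each pathway list, and the 10 genes most like the members' mean. Cidea, Ppara, Ppargc1a, Plin1, Ucp1 and the steroidogenic genes were added after their values were seen. Gene positions and windows are those of the GENCODE annotation of GRCm39, the window of 1 member is not reported here, and 293 genes share a symbol with another. Alternatives were other scaling, filters on genes and nuclei, clustering settings, a block for the replicate number and leaving out each library.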

Additional observations from a re-analysis of the deposited data

Results flagged for a closer look

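The change with age in SAT differed between adipocytes and epithelial nuclei for 2 of 10 members, beside 9.22% of all genes tested. This is by the interaction term of an edgeR fit adjusted over all genes tested. For Scd2 the difference, adipocytes minus epithelial nuclei, was 2.33 on the log2 scale (standard error 0.44, adjusted p = 0.000485): adipocyte levels were 16.3 and 21.6 CPM at 2 months and 12.4 and 46.3 CPM at 24 months, and epithelial levels 71.0 and 61.7 CPM and 10.9 and 37.1 CPM. In both classes replicate 2 held more Scd2 than replicate 1 at 24 months. For Srebf1 the difference was -1.06 (standard error 0.30, adjusted p = 0.0225), with epithelial levels of 222 and 206 CPM at 2 months and 130 and 156 CPM at 24 months. That call was lost without SAT at 2 months replicate 1 (adjusted p = 0.104) or replicate 2 (0.336) and without a filter on low counts (0.0544). The share of the Pgr-led cluster among epithelial nuclei moved with age (69.0% and 50%, then 35.7% and 40.1%). Within that cluster 7.56% of genes were called, and Me1 was called beside Scd2 and Srebf1 (1.13, edgeR adjusted p = 0.0333). The differences of Scd2 and Srebf1 there were 1.87 (adjusted p = 0.00631) and -1.23 (adjusted p = 0.0130). Both of these were lost with a library left out: Scd2 without SAT at 2 months replicate 1 (adjusted p = 0.128) or SAT at 24 months replicate 2 (0.135), and Srebf1 without SAT at 2 months replicate 2 (0.387).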

How the results depend on the processing

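The number of members called with age in SAT adipocytes, 1 in the fit reported, was 3 with library-size scaling, 2 without a filter on low counts, 2 with the 4 SAT libraries alone, 2 without the Acaca-led sub-cluster and 0 to 4 when each library was left out. Between depots it was 1 without a filter and 0 to 1 with a library left out. Without a filter it was 1 in FAPs and in endothelial nuclei for both comparisons, 3 in epithelial nuclei, 1 with age and 2 between depots in immune nuclei, 2 and 1 in all nuclei, and 1 in both the Csn3-led clusters and the Pgr-led cluster. Leaving out a library gave 0 to 1 for endothelial nuclei with age, 0 to 1 between depots for mesothelial, immune and all nuclei, 0 to 3 for epithelial nuclei and the Pgr-led cluster, and 0 to 1 for the Csn3-led clusters. DESeq2 called 0 in epithelial nuclei. Of the pathway genes 3 to 8 were called with a library left out, against 11. The interaction called 1 member without a filter against either class, and 1 to 4 against epithelial nuclei with a library left out.

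Depot differences that turned sign were all uncalled: Fasn -0.0108 without a filter, -0.0045 with looser filters on nuclei and -0.13 without the Acaca-led sub-cluster, Me1 -0.16 and Elovl6 -0.38 without it, and Srebf1 -0.0018 with library-size scaling, -0.022 with DESeq2, -0.0088 without a filter and -0.013 with looser filters. With each library left out, the age differences ran from -1.63 to 0.12 for Elovl6, -1.69 to 1.37 for Scd1 and -0.36 to 1.52 for Scd2, and the depot differences from -0.78 to 2.52 for Fasn, -0.28 to 0.31 for Me1, -1.93 to 1.45 for Elovl6, -2.44 to 0.57 for Scd1, -1.13 to 0.90 for Scd2, -0.40 to 0.29 for Srebf1 and -0.75 to 0.88 for Thrsp. In epithelial nuclei they ran from -0.37 to 0.18 for Acly, -0.35 to 0.22 for Me1, -1.16 to 1.85 for Scd1, -1.19 to 0.33 for Mlxipl and -2.15 to 0.53 for Thrsp. The cause was not tested.

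Deviations of same-numbered libraries from their group means correlated at -0.089 to 0.081 between groups. With 2 libraries per group these values cannot tell whether same-numbered libraries share a mouse. With a replicate block, 3 members were called with age in adipocytes, Srebf1, Fasn (-1.84, adjusted p = 0.0430) and Thrsp (-1.11, adjusted p = 0.0214), and 0 in epithelial nuclei, with Scd2 at an adjusted p of 0.0618, and the depot difference of Thrsp was 0.027. The number of genes called with age in adipocytes was 369 to 2391 over the alternatives against 1707, between depots 0 to 157 against 14, and in epithelial nuclei 264 to 1372 against 1014. It was 132 to 803 against 513 in the Pgr-led cluster and 47 to 964 against 367 between depots in mesothelial nuclei, and where 0 to 3 genes were called it reached 22 to 1034. Taking the mean of each nucleus's CPM moved 3 of 30 levels by over 1 SD, and 0 of 20 differences in shares of nuclei turned sign without thinning. With 2 libraries per group and 6 Elovl6 UMIs in the smallest adipocyte sum, the depth limits what can be said of the low members Elovl6 and Scd2.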

Other observations

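Scd2 and Srebf1 were also present in lymphocytes and macrophages, where no test was made. Unlike T cell nuclei, B cell nuclei of SAT overlapped in Scd2 between the ages, at 55.3 and 85.7 CPM at 2 months and 128 and 62.6 CPM at 24 months; that difference was not tested. Srebf1 in B cell nuclei stood at 98.0 and 119 CPM at 2 months and 59.4 and 71.6 CPM at 24 months, and in macrophage nuclei at 171 and 95.8 CPM and at 68.2 and 69.0 CPM. The values at 24 months rest on 7 to 32 UMIs each.

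Scd1 was among the leading genes of an adipocyte sub-cluster headed by mitochondrial transcripts, which held 1375 nuclei, 14.7% to 24.6% of the adipocytes of each library. It stood there 1.75-fold and 1.46-fold above the other adipocytes in SAT at 2 months, 1.86-fold and 3.73-fold in SAT at 24 months, and 1.57-fold and 3.46-fold in VAT. Mlxipl did not share this pattern, at 0.674-fold to 1.03-fold. In SAT at 24 months replicate 2, Scd1 reached 9583 CPM in that sub-cluster and 2567 CPM in the other adipocytes, so its level in that library was high in both.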
